A study of Equus caballus with 17 samples.

Results

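Mature horse sperm and the testis of infant horses were compared for their small RNA content. The 2 groups are the ends of a series that follows the horse testis from infancy to adulthood and then the sperm: 4 Sperm libraries (numbered 1 to 4) and 3 Infant testis libraries (31a, 31b and 30), chosen by their stage labels, make up 7 of the 17 libraries. No treatment, breed, age in days or transgene is given for either group; the labels name only tissue and stage. Infant 31a and 31b carry the same title number and may come from 1 animal, and nothing in the labels says that the libraries of a group are separate animals, so p-values here measure only the spread between these libraries. The groups also differ in how RNA was prepared: by the labels' protocol the sperm RNA had a short DNase step followed by phenol and chloroform extraction, and the testis RNA a longer DNase step, so tissue and preparation cannot be told apart.

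MicroRNAs (miRNAs) are short RNAs cut from hairpin precursors. Each is loaded into an Argonaute protein and pairs with messenger RNAs mainly through its seed, bases 2 to 8 counted from its 5′ end, and lowers their translation or stability. The infant testis holds Sertoli, Leydig and peritubular cells, vessels, connective tissue and germ cells that have not entered meiosis, whereas a sperm is a single haploid cell with little cytoplasm that keeps a reduced set of RNAs and meets further RNA in the epididymis and seminal fluid. The comparison therefore sets a whole tissue before meiosis against the end product of spermatogenesis. In such bulk libraries, fewer cells of a type and less RNA per cell cannot be told apart.

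The deposited table holds 1763 entries, of which 302 are annotated miRNAs under 274 mature names and 1461 are hairpins predicted from the reads. Annotated miRNAs are given here by name; predicted hairpins are listed with a sequence and a position on EquCab3.0. The hairpins below carry the results on predicted loci described further on. They were picked after their values were seen, because each is among the largest changes, holds the seed of a family discussed here, or stands for a group of look-alike entries. Where a miRNA is named it is from its sequence, not from the table.
In the 4 lines that follow, capitals mark the seed of the 5′ arm of hairpins that read as let-7i, a miR-30 relative, miR-202 and a hairpin with a repeated GU stretch in its 5′ arm.
chr6:80187889-80187965 (+): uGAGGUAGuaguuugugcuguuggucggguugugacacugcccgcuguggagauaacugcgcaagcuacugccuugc
chr20:63894235-63894290 (-): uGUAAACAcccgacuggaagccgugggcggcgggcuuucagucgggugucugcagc
chr1:594419-594474 (+): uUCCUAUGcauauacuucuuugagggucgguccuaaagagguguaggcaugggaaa
chr3:90484145-90484202 (-): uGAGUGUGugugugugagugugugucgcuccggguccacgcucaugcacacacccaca
In the X-linked pair below, which was near 0 in Infant and high in Sperm, capitals mark the longest stretch that both share.
chrX:119901739-119901793 (-): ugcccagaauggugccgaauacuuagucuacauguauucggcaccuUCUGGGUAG
chrX:119911163-119911218 (-): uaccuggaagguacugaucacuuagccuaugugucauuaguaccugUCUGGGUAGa
The next hairpin reads as miR-203, and the one after it was 0 in all Infant libraries; no base is capitalised.
chr24:45947387-45947446 (+): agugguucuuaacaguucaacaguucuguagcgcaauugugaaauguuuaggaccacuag
chr15:29845299-29845380 (-): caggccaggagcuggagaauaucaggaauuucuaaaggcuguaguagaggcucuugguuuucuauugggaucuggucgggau
Of the 3 entries that read as an alanine transfer RNA, 2 are shown with capitals at the bases that differ among the 3.
chr15:76724515-76724573 (+): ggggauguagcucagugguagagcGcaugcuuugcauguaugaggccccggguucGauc
chr27:1812856-1812917 (-): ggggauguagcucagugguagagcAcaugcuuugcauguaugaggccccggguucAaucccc
Members of the largest group of look-alike hairpins (338 entries) are shown last, the second with capitals at the 18-base stretch most frequent in that group.
chr2:5152820-5152929 (+): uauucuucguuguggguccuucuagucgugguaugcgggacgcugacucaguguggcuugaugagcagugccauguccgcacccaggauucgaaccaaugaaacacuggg
chr20:61729814-61729868 (-): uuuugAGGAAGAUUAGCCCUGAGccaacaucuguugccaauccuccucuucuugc

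Annotated miRNAs made up 9534925 to 12373245 counts in the Infant libraries and 1481718 to 2261418 in the Sperm libraries, so the sperm values rest on fewer counts. Levels are given as CPM, counts scaled to a fixed common total of annotated miRNA counts with TMM factors, which sets the typical annotated miRNA equal between libraries. The factor was 1.653 for Infant 30 and 0.915 and 1.001 for Infant 31a and 31b, which lowers every CPM of Infant 30 relative to its share of counts. let-7c, for instance, took 5.75% of annotated counts in Infant 30 and 4.45 and 4.79% in 31a and 31b, yet its CPM was lowest in Infant 30. Over the group, 3 counts correspond to 0.081 CPM in Infant and 0.448 CPM in Sperm, and a fold against a group at 0 is given as a lower bound from that value (counting error only). Of the 274 mature names, 156 had enough counts to be tested with edgeR's quasi-likelihood test, and 57 were at 0 in all 7 libraries. The first principal component of log levels took 92.8% of the variance and separated the groups. Pearson correlations of log levels across miRNAs were 0.955 to 0.973 between Sperm libraries, 0.967 to 0.992 between Infant libraries and 0.351 to 0.424 between a Sperm and an Infant library, a description only, since miRNAs are not independent of each other. Marker levels went with the labels: miR-34c, miR-34b-5p and miR-449a, known from meiotic and later male germ cells, were at 29.1 CPM or less in every Infant library and at 1822 CPM or more in every Sperm library.

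Most of the measured miRNA profile differed. Of 156 annotated miRNAs, 128 passed an adjusted p of 0.05 (82.1%), 61 higher in Sperm (39.1%) and 67 lower (42.9%), and 129 (82.7%) had no overlap between Sperm and Infant libraries. Of the 128, 61 differed by more than 16-fold, 26 higher and 35 lower, and 127 by more than 2-fold. The median log2 fold change over all tested was -0.47, so a group of miRNAs has to be read against a background in which change is the rule. Each count of members that rose or fell below is to be set beside the 39.1% higher and 42.9% lower of all tested. The split of calls depends on what enters the scaling: with all entries, predicted hairpins included, fitted and scaled together, 19 were higher and 115 lower, the median moved to -4.73, and of the 61 higher calls 19 were kept, 7 were lost and 35 changed sign, while all 67 lower calls were kept. That follows from the construction, since nearly all tested hairpins were higher in Sperm and then set the reference; with the same entries and the library total alone as reference, 60 were higher and 73 lower, and none changed sign. Every direction below is relative to annotated miRNAs, and for a named rise that the joint scaling turns or whose call it ends, that value is given too.

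**Figure D1:**
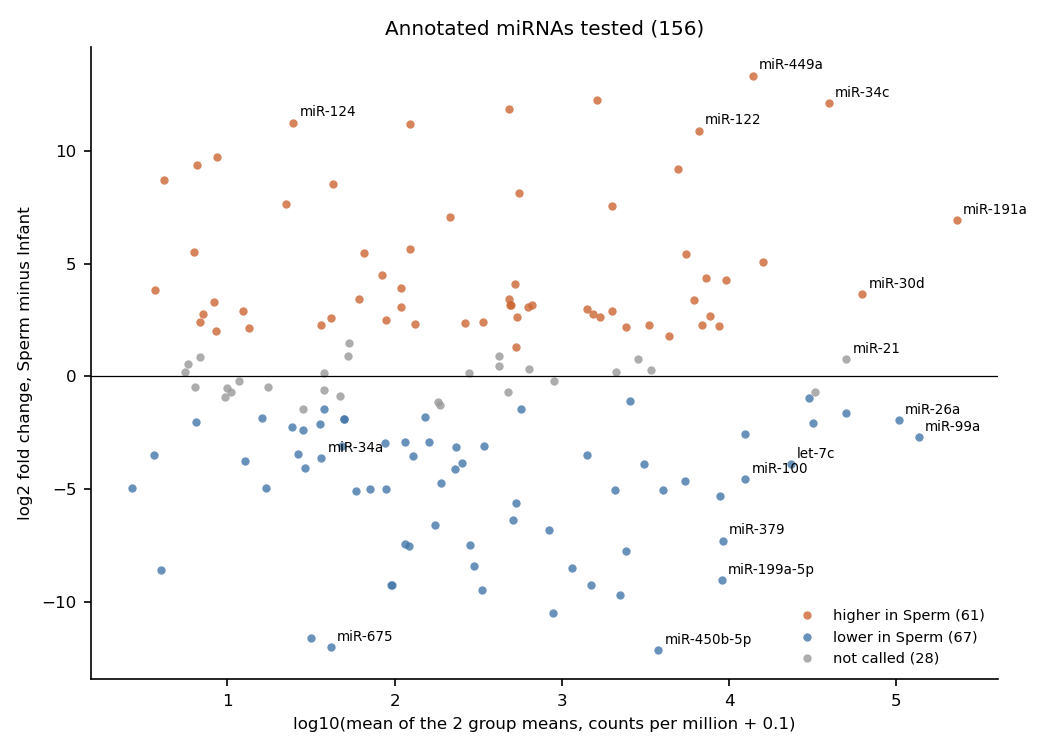
Log2 fold change (Sperm minus Infant) of the 156 tested annotated miRNAs against the log10 of the mean of the group means in CPM; orange points were higher in Sperm (61), blue lower (67) and grey not called (28) by edgeR at an adjusted p of 0.05. Changes of more than 10 on the log2 scale occur in both directions, and miR-191a, the most abundant miRNA of sperm, lies among the rises.

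What the libraries mostly consisted of changed over. Infant libraries were led by miR-99a (30.7% of annotated counts in 31b and 21.8% in 30) or miR-26a (25.5% in 31a), and Sperm libraries by miR-191a (37.8%, 48.6% and 51.7% in Sperm 1, 3 and 4) or, in Sperm 2, by miR-34c (16.6%). Among the 10 most abundant miRNAs of each group 5 were shared. How concentrated the libraries were could not be told apart: the 10 most abundant miRNAs of a library took 81.3% ± 3.21 (SD, n = 3) of annotated counts in Infant and 80.5% ± 3.8 (SD, n = 4) in Sperm, a difference of -0.836 percentage points (exact permutation test over 35 arrangements, 2-sided, p = 0.771, adjusted over 2 measures 0.771). At least 5 counts were seen for 168 ± 3.21 miRNAs in Infant and 142 ± 7.75 in Sperm libraries (difference -26.3, exact permutation p = 0.0286, the smallest the design allows, adjusted 0.0571). With every library thinned to the smallest annotated total the difference was -2.83 (exact p = 0.686), so fewer detected names in sperm were not shown at equal depth.

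**Figure D2:**
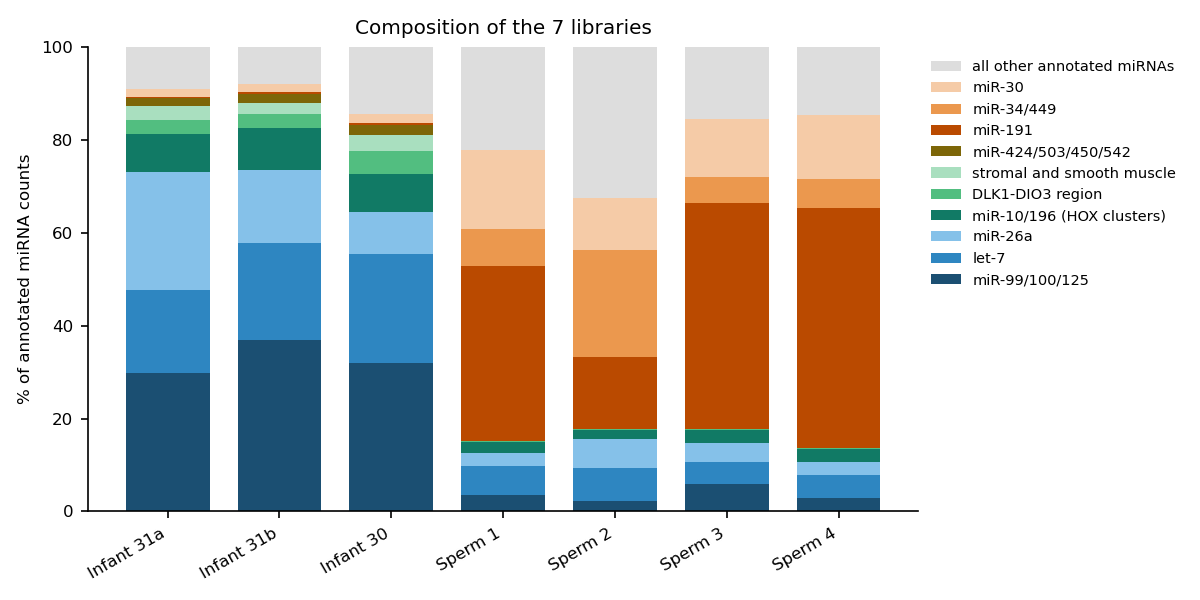
Share of annotated miRNA counts (%) taken by 10 groups of miRNAs in each of the 3 Infant and 4 Sperm libraries, as stacked bars that sum to 100 with all other annotated miRNAs in grey. Blue and green groups fill most of the Infant bars, with miR-99, miR-100 and miR-125 at 29.8 to 36.8%. Orange groups fill most of the coloured part of the Sperm bars, with miR-191 at 15.6 to 51.7%.

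miR-34 and miR-449 form a family that shares a seed and is abundant in meiotic and post-meiotic germ cells, and it held the largest fitted rise of any tested miRNA. miR-449a was at 3.78, 2.83 and 1.45 CPM in Infant 31a, 31b and 30 and at 24390, 49610, 13830 and 23280 CPM in Sperm 1 to 4. The lowest Sperm library was far above the highest Infant library, a log2 fold change of 13.34 ± 0.85 (SE; edgeR adjusted p = 1.23e-08). miR-34c went from 29.1, 16.2 and 7.29 CPM to 57010, 146300, 52390 and 60680 CPM (12.14 ± 0.88, edgeR adjusted p = 4.6e-08). Sperm 2 stood above the other sperm libraries for this miRNA, and the 3 others lay close together. miR-34b-5p, made from the same transcript as miR-34c, rose from 0.688, 1.13 and 0.126 CPM to 2193, 6694, 1822 and 2246 CPM (12.28), again with Sperm 2 highest. miR-449b had only 3 counts over the Infant libraries against 1721 in Sperm, a ratio of 3170 (95% counting interval 1080 to 15400). The remaining member, miR-34a, which is the family's widely expressed, p53-induced member, moved the other way, from 106, 57.0 and 37.9 CPM to 5.16, 6.45, 5.58 and 4.397 CPM (-3.62 ± 0.58, edgeR adjusted p = 6.56e-05). So 4 of 5 members rose and 1 fell, with a family median of 12.14, and together they took 0.00773 to 0.0128% of annotated counts in Infant and 5.77 to 23.0% in Sperm.

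**Figure D3:**
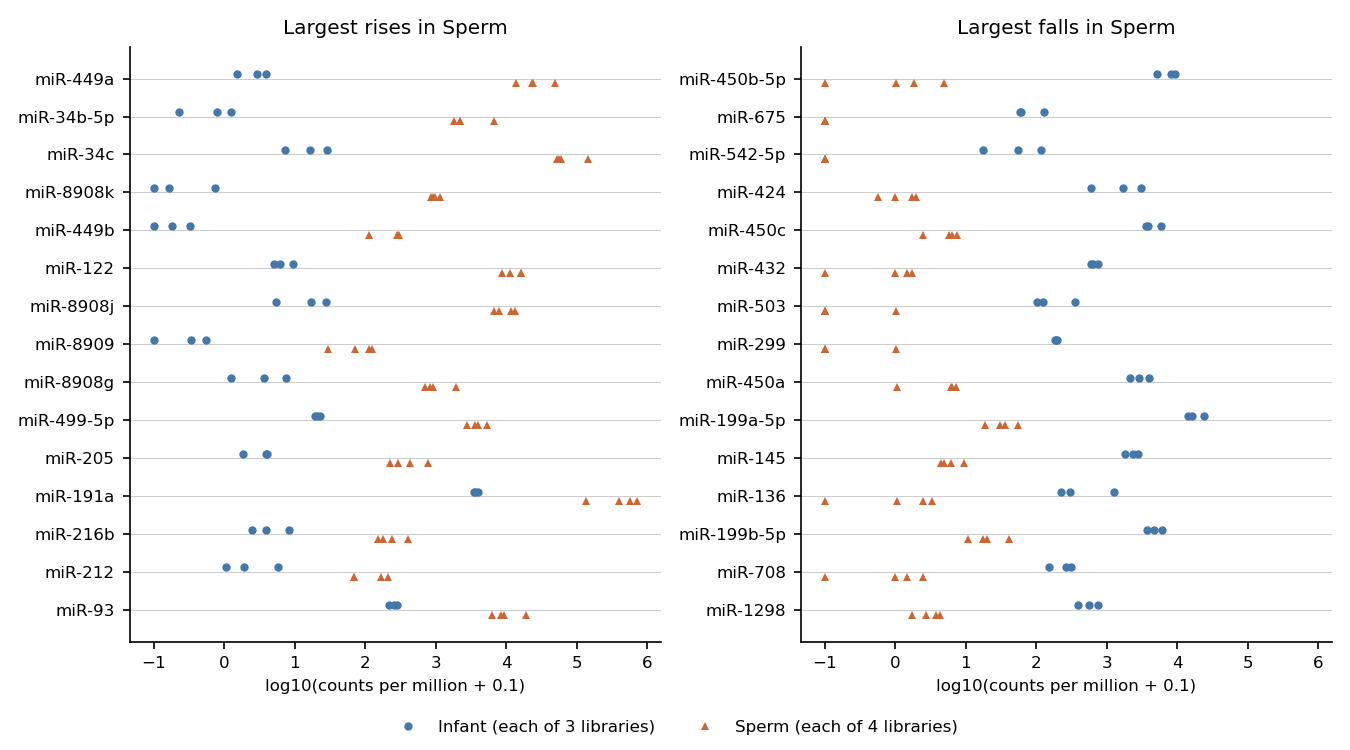
Level in each library, as log10(CPM + 0.1), of the 15 largest rises (left) and 15 largest falls (right) among annotated miRNAs with at least 50 CPM in a group and no overlap; blue circles are the 3 Infant libraries and orange triangles the 4 Sperm libraries, and a point at -1 is a count of 0. miR-449a separates most on the left, and miR-675 and miR-542-5p are at 0 in all Sperm libraries.

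miR-191a, a broadly expressed miRNA read from an intron of DALRD3, took the largest share of annotated counts in Sperm 1, 3 and 4. It was at 3982, 3586 and 3556 CPM in Infant and at 400900, 137900, 573600 and 708800 CPM in Sperm. The Infant libraries agree closely and the Sperm libraries span a wide range with Sperm 2 lowest, yet all lie far above, a log2 fold change of 6.94 ± 0.70 (edgeR adjusted p = 7.95e-07). In share of annotated counts it went from 0.359 to 0.588% to 15.6 to 51.7%.

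All 4 members of the miR-30 family in the table rose, with a median log2 fold change of 3.02, and all 4 change sign under the joint scaling with predicted hairpins. miR-30d, the most abundant, was at 9030, 11230 and 7228 CPM in Infant and 138900, 62320, 101600 and 160800 CPM in Sperm (3.66 ± 0.49, edgeR adjusted p = 1.27e-05). Its genomic neighbour miR-30b rose by 3.38, and the neighbours miR-30e and miR-30c by 2.67 and 2.23. Under that scaling the 4 had values of -0.79 (miR-30b), -2.06 (miR-30c), -0.55 (miR-30d) and -1.23 (miR-30e). A predicted hairpin with the miR-30 seed (chr20:63894235-63894290, shown above) was at 3662, 6958 and 4648 CPM in Infant and 183100, 33080, 94610 and 283600 CPM in Sperm, a log2 fold change of 4.87 ± 0.72 that was 4.07 without Sperm 4 and 0.58 under the joint scaling (adjusted p = 0.360). Sperm 2 was lowest of its group, as for miR-30d, and the groups did not overlap.

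Several miRNAs best known from particular organs or cell types outside the testis were among the largest rises. miR-122, the dominant miRNA of hepatocytes, was at 4.93, 9.45 and 6.16 CPM in Infant and 11460, 8753, 16310 and 16240 CPM in Sperm (10.91 ± 0.65, edgeR adjusted p = 1.23e-08). The sperm values lie close together and the groups are far from overlapping. miR-499-5p, from an intron of the myosin gene MYH7B and known from heart and slow muscle, rose from 23.2, 20.8 and 19.2 CPM to 3654, 5416, 2775 and 3927 CPM (7.55 ± 0.54). miR-205, an epithelial miRNA and the only member of the epithelial list among the annotated entries, rose from 3.896, 3.795 and 1.759 CPM to 426, 288, 771 and 224 CPM (7.08 ± 0.74). The predicted miR-203 hairpin, likewise known from epithelium, was at 30.3, 33.6 and 59.7 CPM in Infant and at 2985, 2628, 2629 and 468 CPM in Sperm (5.72 ± 0.83), with Sperm 4 well below the others. Of 5 tested miRNAs on a neural list, 3 rose (miR-124, miR-9a by 4.10, or 0.07 with adjusted p = 0.905 under the joint scaling, and miR-7 by 2.63, or -1.37) and 2 fell (miR-129a-5p and miR-129b-5p, both by 1.90, with adjusted p = 0.0553 without Infant 31b and 0.123 and 0.0749 when thinned). The miR-129 entries had the same counts in every library but Infant 31a (693 and 694), so they amount to 1 observation. miR-124 was at 0 counts in every Infant library and at 55.3, 24.4, 64.6 and 52.8 CPM in Sperm, at least 575-fold higher; it lies outside the rule for named miRNAs and was picked after its values were seen. miR-216b and miR-217, known from the pancreas, rose by 5.64 ± 0.71 and 7.67 ± 0.96, the second to a mean of 44.5 CPM in Sperm and also named after its values were seen. Thus miR-122, miR-499-5p, miR-205 and miR-124 were counted in all 4 Sperm libraries. The lists for liver, striated muscle and epithelium each hold only 1 annotated miRNA here, and the neural list went both ways. All of the miRNAs that rose here but miR-124 and miR-217 were also counted in every Infant library, at lower levels. For miR-217 there were 2, 5 and 0 counts in Infant 31a, 31b and 30. The part that RNA of other cells or fluids had in the rises was not tested.

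Blood cell miRNAs did not move together. Of 5 tested, miR-451 rose, miR-150 fell and 3 were not called. Of these, miR-142-5p, a miRNA of blood cells in general, missed the threshold at -1.12 and was called lower under 10 alternatives, among them upper-quartile scaling (-1.47, edgeR adjusted p = 0.0162) and the library total alone (-1.53, 0.0289). As a group the 5 took 0.251, 0.298 and 0.895% of annotated counts in Infant 31a, 31b and 30 and 0.481 to 0.506% in Sperm. miR-451, the erythroid miRNA, was at 71.9, 40.5 and 329 CPM in Infant and 526, 1121, 1002 and 1052 CPM in Sperm (2.65 ± 0.69, edgeR adjusted p = 0.00279); its value was 4.05 without Infant 30, 1.96 with adjusted p = 0.0645 without Sperm 4, 1.57 with adjusted p = 0.0624 with Infant 31a and 31b summed, and -1.43 under the joint scaling. miR-486-5p, also erythroid, was at 155, 220 and 2517 CPM in Infant and 315, 516, 1193 and 1339 CPM in Sperm and not called (-0.20 ± 0.82). Infant 30 stands apart for both, and without it miR-486-5p was higher in Sperm by 2.18 (edgeR adjusted p = 0.00548). miR-150, a lymphocyte miRNA, was at 267, 345 and 101 CPM against 13.1, 11.98, 49.4 and 8.79 CPM (-3.53 ± 0.70).

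miRNAs of stroma and smooth muscle were close to absent from sperm. miR-199a-5p, a marker of mesenchymal cells, was at 23900, 15860 and 14320 CPM in Infant and 18.8, 35.9, 54.2 and 29.9 CPM in Sperm (-9.03 ± 0.56, edgeR adjusted p = 1.23e-08). miR-145, the smooth muscle miRNA that favours the contractile state, went from 2725, 2326 and 1816 CPM to 6.09, 9.21, 4.78 and 4.397 CPM (-8.51 ± 0.54), and miR-199b-5p fell by 7.74. All 3 tested members fell, and their summed level was 20800 to 32600 CPM in Infant and 42.2 to 85.7 CPM in Sperm, where no member was at 0 in any library. In share of annotated counts the list took 2.19 to 3.44% in Infant and 0.00327 to 0.00971% in Sperm. The endothelial miR-126-5p fell by 2.93 ± 0.52 and remained measurable, at 22.1 to 35.2 CPM in Sperm. miR-202, known from the supporting cells of the gonad, appears as a predicted hairpin (chr1:594419-594474) at 9687, 7842 and 1859 CPM in Infant and 313, 262, 104 and 80.9 CPM in Sperm (-5.09 ± 0.71). Infant 30 was lowest of its group for miR-202 and still above the highest Sperm library.

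The X-linked cluster of miR-424, miR-503, miR-450a, miR-450b, miR-450c and miR-542, whose miR-424 and miR-503 restrain the cell cycle, was at 7.37 CPM or less in every Sperm library. All 6 members fell, with a median log2 fold change of -10.1 (-9.49 with miR-542-5p at its bound). miR-450b-5p went from 8012, 9375 and 5198 CPM in Infant to 0, 0.921, 4.78 and 1.76 CPM in Sperm (-12.16 ± 0.86, edgeR adjusted p = 4.24e-08). miR-424 went from 3046, 1675 and 589.5 CPM to 0.469, 1.84, 1.59 and 0.879 CPM (-10.51 ± 0.79). miR-542-5p had 1965 counts in Infant and 0 in Sperm, at least 118-fold lower, and miR-503 had 7940 against 2, a ratio of 718 (95% counting interval 199 to 5930). The cluster's share of annotated counts was 1.64 to 2.11% in Infant and 0.000354 to 0.00193% in Sperm.

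Another X-linked set, the miR-506 family, which evolves fast and is expressed in the testis, was low at both ends. miR-509a-5p was at 220, 213 and 86.6 CPM in Infant and 10.3, 2.76, 3.19 and 5.28 CPM in Sperm (-4.98 ± 0.66, edgeR adjusted p = 1.1e-05). The 4 other members in the table were too low to test, miR-514a with 166 counts in Infant and 0 in Sperm being the highest of them. The adult testis lay far above both: scaled over all 17 libraries, miR-509a-5p averaged 253 ± 79.3 CPM in the 3 Infant libraries, 26950 ± 2736 in the 3 of Puber testis, 17150 ± 3512 in the 4 of Adult testis and 6.33 ± 3.41 in the 4 of Sperm (SD).

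Imprinted miRNAs mostly fell. Of 14 tested in the DLK1-DIO3 region, a cluster expressed from the maternal chromosome, 10 were lower in Sperm, 1 higher and 3 not called, with a median of -4.81 (-4.36 with miR-337-5p at its bound). Over all tested annotated miRNAs 42.9% were lower and 39.1% higher. miR-379 was at 19150, 19450 and 16190 CPM in Infant and 103, 151, 108 and 106 CPM in Sperm (-7.29 ± 0.44, edgeR adjusted p = 1.23e-08). miR-411, its neighbour, was at 10640, 10240 and 10740 CPM against 459, 480, 414 and 358 CPM (-4.62 ± 0.39), and miR-432 fell by 9.47 and miR-136 by 8.41. The exception was miR-382, at 199, 245 and 469 CPM in Infant and 633, 451, 1268 and 661 CPM in Sperm, whose groups overlapped (1.31 ± 0.51, edgeR adjusted p = 0.0280). Its adjusted p was 0.134, 0.0708, 0.144 and 0.211 without Infant 31a, Infant 31b, Sperm 3 and Sperm 4 in turn, 0.131 with upper-quartile scaling and 0.265 with the library total alone, and its value was -2.96 under the joint scaling. miR-675, processed from the imprinted H19 RNA, had 61.2, 59.0 and 127 CPM in Infant and 0 counts in all 4 Sperm libraries, at least 198-fold lower. miR-335, from an intron of the imprinted MEST gene, was at 393, 264 and 139 CPM against 319, 457, 192 and 193 CPM and was not called (0.13 ± 0.52).

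The families that dominate the infant testis fell, each to a different degree. miR-99a was at 270800, 306400 and 132100 CPM in Infant and 34690, 18130, 59400 and 33840 CPM in Sperm (-2.70 ± 0.49, edgeR adjusted p = 1.69e-04), and miR-100, which differs from it by little and targets mTOR, at 26390, 24930 and 20520 against 943, 544, 1567 and 1004 CPM (-4.56 ± 0.45). All 5 of the miR-99, miR-100 and miR-125 group fell, with a median of -3.89. miR-125a-5p and miR-125b-5p fell by 5.06 and 2.54, and by 5.91 and 3.41 without Sperm 3, which was the highest sperm library for both; when thinned, miR-125b-5p was at -1.66 and not called (adjusted p = 0.0581). miR-26a, which restrains EZH2, was at 279000, 159000 and 54710 CPM in Infant and 29610, 54080, 48840 and 40070 CPM in Sperm. Infant 30 lies just above the highest Sperm library, and the log2 fold change of -1.93 ± 0.51 (edgeR adjusted p = 0.00304) was -1.31 without Infant 31a and -1.11 when thinned, where the call was lost (adjusted p = 0.0739). A hairpin that reads as miR-26b was not called (-0.36 ± 0.60).

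Of 7 let-7 family members, which promote differentiation, 5 fell and 2 were not called, with a median of -2.05 (42.9% of all tested miRNAs fell). The spread among them was wide. let-7e was at 4370, 3718 and 3979 CPM in Infant and 120, 120, 124 and 124 CPM in Sperm (-5.04 ± 0.40, edgeR adjusted p = 9.45e-08), and miR-98 fell by 5.62. let-7c was at 48660, 47830 and 34760 against 2839, 2085, 3184 and 3745 CPM (-3.88 ± 0.40), and let-7f fell by 2.05. let-7g was the weakest call (-0.98 ± 0.39, edgeR adjusted p = 0.0309) and was not past 0.05 when Infant 31a, Infant 31b, Sperm 1 or Sperm 3 was left out, at 0.0639, 0.298, 0.0731 and 0.0618, nor with DESeq2 (0.0520) or when thinned (0.448). let-7a (-0.69 ± 0.36) and let-7d (0.21 ± 0.43) were not called. let-7a was called lower with upper-quartile scaling (-0.90, adjusted p = 0.0343), with the library total alone (-1.02, 0.0105), in the fit of 17 libraries (-0.98, 0.00448) and without Sperm 4 (-1.13, 0.0268), and was at 0.04 when thinned. The predicted let-7i hairpin (chr6:80187889-80187965), which carries the family seed GAGGUAG and is the only one of 1461 hairpins that starts with it after its first base, was at 62450, 72090 and 57390 CPM in Infant and 7126, 6329, 3229 and 7306 CPM in Sperm (-3.42 ± 0.62), with no overlap between the groups.

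miRNAs related to the miR-17-92 cluster by paralogy, that cluster included and known for promoting proliferation, were mostly higher in sperm. Of 8, 6 rose and 2 were not called, with a median of 3.12 (39.1% of all tested miRNAs rose). Under the joint scaling, however, miR-17, miR-20a, miR-106a and miR-18b change sign and miR-18a (0.49) loses its call. miR-93 was at 280, 216 and 254 CPM in Infant and 19110, 8434, 6343 and 9280 CPM in Sperm (5.43 ± 0.55, edgeR adjusted p = 8.11e-07). miR-106b, next to miR-93 in the genome, was at 652, 305 and 97.6 CPM against 454, 580, 462 and 447 CPM and was not called (0.47 ± 0.56). miR-17, miR-20a and miR-106a rose by 3.17, 3.00 and 3.07, and under that scaling were at -0.95, -0.95 and -1.04. The counts of miR-17 and miR-106a were close in every library, with totals of 4829 and 4830 in Infant and 8606 and 8096 in Sperm. These entries may hold mostly the same reads and may not be separate observations. The neighbours miR-182, miR-96 and miR-183, known from sensory cells, all rose too, miR-183 from 17.1, 10.7 and 3.33 CPM to 69.8, 166, 119.5 and 94.98 CPM (3.45 ± 0.68), miR-182 by 2.52 and miR-96 by 2.40, while the joint scaling gave -0.49, -1.45 and -1.60.

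Relatives with the miR-15/16 seed split. miR-16 rose from 1335, 885 and 621 CPM to 26800, 19770, 16140 and 10210 CPM (4.27 ± 0.52, edgeR adjusted p = 4.98e-06), and miR-15b, its neighbour, by 3.18; under the joint scaling they were at 0.18 (adjusted p = 0.751) and -1.01. miR-195 went from 2471, 1796 and 736 CPM to 17.3, 19.8, 16.7 and 3.52 CPM (-6.84 ± 0.67), and its neighbour miR-497 fell by 7.43. With miR-424 and miR-503, 4 of 7 fell, 2 rose and miR-15a was not called, beside 42.9% lower and 39.1% higher of all tested. Within this seed family the neighbours miR-16 and miR-15b both rose and the neighbours miR-195 and miR-497 both fell. miR-16, counted under 1 name, also neighbours miR-15a, which was not called (0.92). Over the table, 68 tested miRNAs fall in 24 groups of RefSeq miRNA genes that neighbour each other within 10 kb. In 10 groups all members rose, in 7 all fell, 1 (miR-539, miR-382, miR-134, miR-485, miR-154a, miR-409 and miR-369) held both directions and 6 held members not called. Many groups are pairs, and 82.1% of all tested miRNAs were called. Whether neighbours moved together more often than other miRNAs was not tested. Under the joint scaling 7 of the 10 have a member that changes sign and 3 keep every call (miR-34b-5p with miR-34c, the miR-449 pair and the miR-8908 group), as do all 7 that fell. Among those that fell together were the 6 of miR-532, miR-500, miR-362, miR-501, miR-660 and miR-502, by 1.85 to 4.08, and among those that rose together the pair of miR-192 and miR-194, by 3.17 and 3.10 (-0.82 and -1.07 under the joint scaling). miR-194 also neighbours miR-215, so it enters more than 1 of the 10 groups that rose.

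Other families gave mixed pictures. The HOX-cluster miRNA miR-10b fell from 88150, 87890 and 49140 CPM to 22750, 14210, 27640 and 33000 CPM (-1.62 ± 0.42, edgeR adjusted p = 0.00270; -0.87 with 0.0898 when thinned), while miR-10a rose from 1651, 670 and 284 CPM to 2712, 3211, 5600 and 4420 CPM (2.20 ± 0.57; 3.04 without Infant 31a, -1.86 under the joint scaling). Both miR-181 members were called lower, miR-181a by 1.08 and miR-181b by 1.47. Both lost the call without Infant 31b (adjusted p = 0.202 and 0.111) and when thinned (0.411 and 0.114), and miR-181a also without Infant 31a (0.0790) or Sperm 1 (0.0844). miR-146b-5p rose from 221, 233 and 1535 CPM to 17720, 11890, 8657 and 16980 CPM (4.38 ± 0.75; 5.94 without Infant 30, 0.19 with adjusted p = 0.787 under the joint scaling), whereas miR-146a, an NF-kB target like it, was not called (0.27 ± 0.58). miR-21, among the most abundant in both groups, was at 30480, 26970 and 53800 against 55030, 101900, 44750 and 50540 CPM and not called (0.77 ± 0.45; 1.14 with edgeR adjusted p = 0.0388 without Infant 30, 1.36 with 0.0271 when thinned). miR-340-5p rose from 1134, 871 and 708 CPM to 22660, 62670, 17170 and 20900 CPM (5.09 ± 0.60; 1.24 with adjusted p = 0.0822 under the joint scaling), with Sperm 2 highest. The horse miR-8908 family rose in all 4 tested members (median 9.30, or 8.67 with miR-8908f at its bound), miR-8908j from 27.4, 16.96 and 5.28 CPM to 11530, 8045, 13170 and 6704 CPM (9.22 ± 0.76); its members neighbour each other, and reads may not be told apart between near-identical copies.

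**Figure D4:**
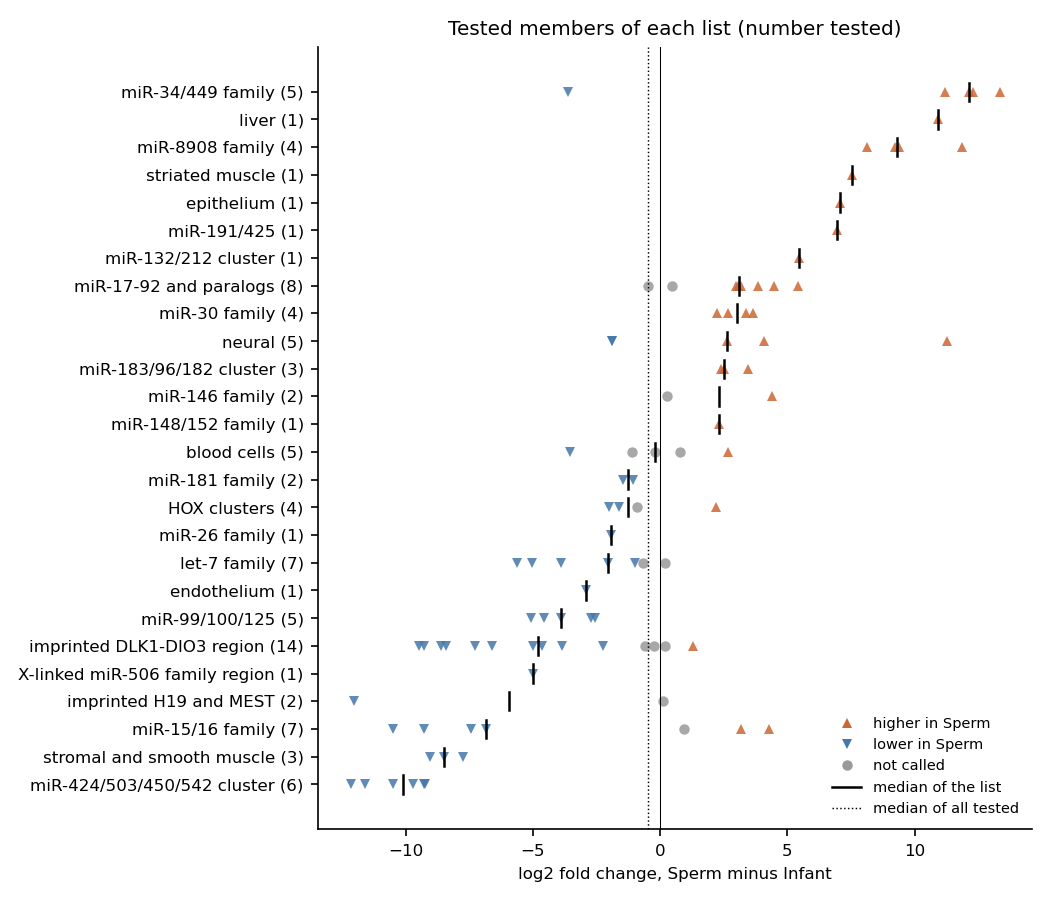
Log2 fold change (Sperm minus Infant) of each tested annotated miRNA in 26 lists, ordered by list median, with the number tested in parentheses; up triangles were higher in Sperm, down triangles lower and grey circles not called, the short bar is the list median and the dotted line the median of all tested (-0.47). The miR-34 and miR-449 family lies farthest right but for miR-34a, and the miR-424 cluster farthest left. The miR-30 family, the neighbours miR-182, miR-96 and miR-183, and 4 of the miR-17-92 group change sign under the joint scaling. So do miR-10a, miR-15b, miR-148b-5p, miR-382, miR-451 and miR-7 among the members called higher.

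Adult testis, which holds meiotic and post-meiotic germ cells along with the somatic cells, was read on a scale over all 17 libraries as a description. Of the 61 miRNAs higher in Sperm, 38 had an Adult mean between those of Infant and Sperm, 18 below both and 5 above both; of the 67 lower, 49 lay between, 15 above both and 3 below both. miR-34c averaged 25.3 ± 13.2 CPM in Infant, 14780 ± 4385 in Puber, 34210 ± 6146 in Adult and 94790 ± 48820 in Sperm (SD, n = 3, 3, 4 and 4). On the log2 scale its step from Infant to Adult was 10.4 and that from Adult to Sperm 1.47 (edgeR adjusted p = 0.107), although in CPM the second step was the larger. miR-191a was not called between Adult and Infant (edgeR adjusted p = 0.247), with 5700 ± 833 CPM in Infant, 8678 ± 2181 in Adult and 573300 ± 342200 in Sperm. miR-122 was called higher in Adult than in Infant (1.81 on the log2 scale, edgeR adjusted p = 0.0071), still far from its level in Sperm, with 10.5 ± 3.42, 36.8 ± 15.2 and 16500 ± 6478 CPM. miR-205 averaged 1.72 ± 0.38 CPM in Adult and 4.64 ± 1.18 in Infant, a difference that was not called (edgeR adjusted p = 0.0652), and 547 ± 395 CPM in Sperm. Among the falls, miR-145 was at 3456 ± 221 CPM in Infant, 5016 ± 1695 in Adult and 7.36 ± 2.22 in Sperm, and miR-99a was called lower in Adult than in Infant (edgeR adjusted p = 5.83e-05), at 348700 ± 93930, 50310 ± 14570 and 46540 ± 28360 CPM. In that fit 142 of 184 miRNAs differed between Sperm and Adult (77.2%) and 85 between Adult and Infant (46.2%) by edgeR.

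Predicted hairpins with enough counts to be tested were nearly all higher in sperm, and for many of them the low-count filter fixed that direction. These had no or almost no count in Infant and passed through Sperm alone, so the share that rose is not a separate result for them. Of 525 tested against the scaling of the annotated miRNAs, 520 were called (99%), 509 higher in Sperm (97%) and 11 lower (2.1%), with 510 not overlapping (97.1%) and a median log2 fold change of 8.94 (8.06 with the 160 hairpins at 0 in a group at their bound). Hairpins took 9.11, 10.2 and 11.2% of counts in Infant and 23.2, 14.1, 16.3 and 22.7% in Sperm, a difference of 8.92 percentage points whose groups do not overlap (exact permutation p = 0.0571, while the smallest the design allows is 0.0286). Per library 180 ± 22.9 hairpins (SD, n = 3) had at least 5 counts in Infant and 639 ± 64.8 (SD, n = 4) in Sperm, although the Sperm libraries are shallower (exact permutation p = 0.0286). Scaled on their own counts instead, 226 hairpins were higher and 85 lower, so the excess of rises is a statement relative to annotated miRNAs.

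Many hairpins are near copies of each other and do not count as separate observations. Grouped by any shared stretch of 18 bases on either strand, 338 fall in a single family, 249 in smaller families and 874 share none. With 1 hairpin per family, chosen after seeing the data as the one with the most counts, 165 of 178 were higher and 8 lower (97.2% called), among hairpins that passed the same filter. The summed level of the largest family was 80.8, 90.7 and 74.7 CPM in Infant and 56000, 23610, 59480 and 44290 CPM in Sperm, 559 times higher in the mean. All 280 of its tested members rose, but with Infant sums this low nearly all of them passed the low-count filter through Sperm alone. The direction of those members is therefore not a separate result. Of its 337 entries with a count, 119 have the same counts in all 7 libraries as another, so such sums can hold the same reads more than once; with each set of identical counts taken once, 256 entries remain and the ratio was 641. The smaller families summed to 1704 ± 369 CPM in Infant and 19940 ± 4840 in Sperm, 11.7 times higher (9.96 with identical counts taken once). Hairpins without a shared stretch summed to 98060 ± 20260 and 209100 ± 109500 CPM, a ratio of 2.13, and there Sperm 2 at 94580 CPM lay within the Infant range of 74800 to 111900 CPM. The member of the largest family on chr2 shown above was at 1.15, 0.646 and 0.565 CPM in Infant and 3317, 2384, 5035 and 2955 CPM in Sperm. The 18-base stretch AGGAAGAUUAGCCCUGAG, capitalised above, is held on either strand by 37 of the 1461 hairpins (2.53%), all of them in the largest family, and the copy on chr20 went from 1.72, 1.21 and 0.942 CPM to 84.4, 59.4, 23.9 and 21.1 CPM.

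**Figure D5:**
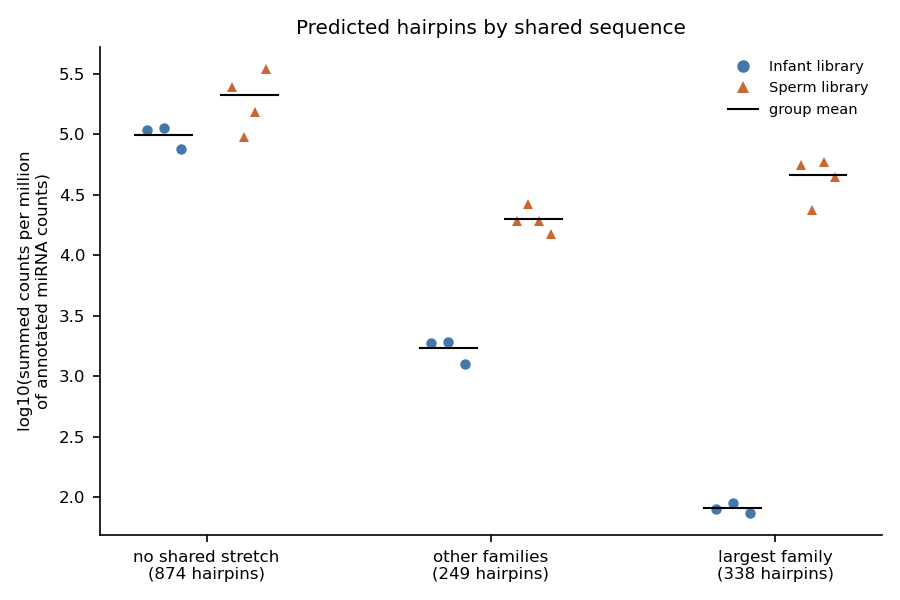
Summed level of predicted hairpins in each library, as log10 of summed CPM relative to annotated miRNA counts, for hairpins that share no 18-base stretch, hairpins in smaller families and the largest family of 338; circles are Infant and triangles Sperm libraries, and lines are group means. The gap between groups is widest for the largest family (559 times) and the groups overlap for hairpins with no shared stretch (2.13 times).

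Some hairpins that rose had no count in Infant at all. They passed the filter through Sperm alone, so the direction of their change is not a separate result. A pair of entries on chromosome 15 with identical sequence and identical counts, of which chr15:29845299-29845380 is shown above, had no count in Infant and 705, 278, 1275 and 808 CPM in Sperm, at least 8530-fold higher. A hairpin on chromosome 3 (chr3:101334449-101334508) had none in Infant and 150, 59.4, 483 and 335 CPM in Sperm, at least 2650-fold higher. The X-linked pair shown above, whose starts lie 9424 bp apart and which shares UCUGGGUAG at its 3′ end, rose from near 0. The member at chrX:119901739-119901793 was at 7.91, 6.38 and 0.942 CPM in Infant and 21760, 17040, 22290 and 15820 CPM in Sperm (11.89 ± 1.02), and the other at 0.688, 1.13 and 0.628 against 2695, 6941, 2771 and 2926 CPM (12.16 ± 1.08). The shared stretch occurs in 3 of the 1461 hairpins, counting either strand. Of 17 tested hairpins on the X chromosome 16 rose and 1 fell, near the share over all 525 tested hairpins, of which 97% were higher.

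The 3 entries that read as an alanine transfer RNA had the same or nearly the same counts. The entry at chr15:76724515-76724573 was at 131, 148 and 6.60 CPM in Infant and 1584, 5898, 1524 and 1818 CPM in Sperm (4.83 ± 0.79; 4.13 without Sperm 2, 1.02 with adjusted p = 0.259 under the joint scaling). Infant 30 was low and Sperm 2 high. A hairpin that reads as miR-320a, which is cut without Drosha, was at 1056, 1268 and 961 CPM against 10570, 2779, 6486 and 15860 CPM (3.03 ± 0.70; 2.31 without Sperm 4, -1.22 under the joint scaling). Among the 11 that fell were let-7i and miR-202 described above and a hairpin that reads as miR-152, a DNMT1-targeting miRNA, at 6055, 4419 and 2183 CPM in Infant and 276, 225, 151 and 323 CPM in Sperm (-4.12 ± 0.69). The hairpin with a repeated GU stretch at chr3:90484145-90484202 went from 928, 959 and 561 CPM to 45.9, 19.8, 39.1 and 36.9 CPM (-4.53 ± 0.74), and one on the X chromosome (chrX:98954634-98954697) from 357, 345 and 258 CPM to 5.63, 11.98, 3.98 and 3.52 CPM (-5.63 ± 0.81). A hairpin that reads as miR-339 was at 392, 358 and 252 CPM against 353, 124, 420 and 244 CPM and was not called.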

How the data were processed

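Small RNA sequencing libraries of 4 Sperm and 3 Infant testis samples were compared, out of 17. The deposited table gives, for each library, raw counts per annotated miRNA or predicted hairpin and the authors' RPM, which equals the count divided by the column total to within 0.006 and was not tested. Trimmomatic and the build EquCab3.0 are named in the submitters' processing notes; the aligner and counter are not given in the sources used here. Each column was matched to its sample by its name.

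Per mature name the entry with the highest summed counts was kept (22 names had more than 1). Counts were filtered with filterByExpr, scaled with TMM and tested with edgeR 4.0.16 (glmQLFit, glmQLFTest; R 4.3.3) in the 7 libraries, with Benjamini-Hochberg adjustment over all tested and a threshold of 0.05. Predicted hairpins had a test of their own, on library sizes and TMM factors taken from the annotated miRNAs. The SE of a log2 fold change is its size over the square root of F, an approximation. Library measures were compared with an exact permutation test, 2-sided. The test scripts were tested on simulated data. Annotated totals of 1481718 to 12373245 counts limit the precision at low levels in Sperm most.

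Named miRNAs are the 15 largest rises and falls with no overlap and at least 50 CPM in a group, the 10 most abundant of each group, up to 4 members of each list, and the 3 hairpins that rose and fell most. Other miRNAs given with values, among them miR-34a, let-7e, miR-98, miR-150, miR-106b and miR-497, lie outside this rule. They are not among the named values counted under the alternatives. The comparison, the members and the lists were chosen with earlier results of these data known. Alternatives were DESeq2 1.42.0, limma-voom (limma 3.58.1), other scalings and filters, all 17 libraries in the fit, thinned counts, Infant 31a and 31b summed, all entries fitted together, and leaving out each library. Neighbouring miRNA genes come from a RefSeq gene table of another assembly (155 of 156 tested names matched), used for names and neighbours only. Lists with no annotated entry in the table were miR-29, miR-23/24/27, miR-221/222 and the gonadal miR-202; miR-105/767 and miR-371 were below the filter.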

Additional observations from a re-analysis of the deposited data

Results flagged for a closer look

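Among 99 measures screened in the 4 Sperm libraries, 12 had a highest or lowest library whose gap to its nearest neighbour, as a share of the group's range, was above Dixon's 95% critical value for 4 samples; chance gives about 1 in 20, and several of these measures share reads or a transcript. Sperm 2 was the high library for most. The gap was 0.912 for miR-34c and 0.913 for miR-34b-5p, which come from 1 transcript, 0.879 for miR-340-5p, 0.889 for miR-379, and 0.946 for the X-linked hairpin at chrX:119911163-119911218. For the 3 entries that read as an alanine transfer RNA it was 0.933, 0.933 and 0.934, from nearly the same counts. miR-449b had a gap of 0.889 with Sperm 3 low, and the hairpin that reads as miR-203 one of 0.858 with Sperm 4 low. For miR-299 and miR-503 the gap was 1, because Sperm 2 had 2 counts and the other Sperm libraries 0.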

How the results depend on the processing

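Of 1687 values of named miRNAs and hairpins under the alternatives, 1567 kept their direction and side of the threshold, 42 lost the call, 27 gained one and 51 changed sign. With all entries fitted and scaled together 19 annotated miRNAs were higher and 115 lower, and 24 hairpins lower. The sign then changed for miR-106a (-1.04), miR-10a (-1.86), miR-146a (-3.87), miR-148b-5p (-1.73), miR-155 (-3.40), miR-15b (-1.01), miR-17 (-0.95), miR-182 (-1.45), miR-183 (-0.49), miR-20a (-0.95), miR-21 (-3.22), miR-30b (-0.79), miR-30c (-2.06), miR-30d (-0.55), miR-30e (-1.23), miR-335 (-3.81), miR-382 (-2.96), miR-451 (-1.43), miR-7 (-1.37), miR-96 (-1.60) and the miR-320a hairpin (-1.22). These hairpins are nearly all higher in Sperm and set the reference there. Scaled on their own counts, 311 hairpins were called, 226 higher and 85 lower, and the sign changed for the miR-320a hairpin (-4.33), the hairpin with the miR-30 seed (-2.60), the miR-203 hairpin (-1.39) and the 3 transfer RNA entries (each -1.99). Without the low-count filter 958 hairpins were called, 936 higher and 22 lower, because more were tested; with 1 per sequence family 173 were called, 165 of them higher, from fewer tested.

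Values not called in the report also changed sign: let-7a thinned (0.041), miR-196a thinned (1.27, from -0.92), miR-21 with Infant 31a and 31b summed (-0.035), and miR-146a with the library total alone (-0.018; -0.21 with all entries) and in the fit of 17 libraries (-0.011). miR-335 was at -0.006 with upper-quartile scaling, -0.019 with the library total alone (-0.15 with all entries), -0.14 without the filter, -0.17 in the fit of 17 libraries and -0.12 with 31a and 31b summed. miR-486-5p was at 0.64 with limma-voom and 0.40 when thinned. Leaving out 1 library gave -0.41 to 0.72 for miR-146a, -0.17 to 0.53 for miR-335, -1.09 to 2.18 for miR-486-5p, -0.72 to 0.026 for the miR-26b hairpin and -0.47 to 0.089 for the miR-339 hairpin; of these, miR-486-5p at 2.18 was called.

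Leaving out 1 library gave 124 to 135 called annotated miRNAs (59 to 66 higher, 62 to 73 lower) and 539 to 602 called hairpins (522 to 591 higher, 11 to 19 lower). The difference in detected miRNAs was -28.7 to -22.7, where an exact p below 0.0667 cannot be reached with 2 against 4 libraries; it was -2.83 when thinned (exact p = 0.686), -29.5 with 31a and 31b summed and -11.5 at a minimum of 1 count. The difference in the share of the 10 most abundant was 0.263 points with 31a and 31b summed, 12.6 for the single most abundant, and -2.68 to 0.284 with 1 library left out. Thinned to the smallest annotated total, 60 were higher and 51 lower (median 0.49). The median moved from -0.47 to -0.92 with the library total alone. No paired analysis was possible because the Infant and Sperm titles share no number. The depth of Sperm limits what can be read near 0 counts there. The causes of the other changes were not tested.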

Other observations

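Several miRNAs outside the families described above also stood at opposite ends. miR-1298 was at 747, 559 and 390 CPM in Infant and 4.22, 3.69, 1.59 and 2.64 CPM in Sperm, a log2 fold change of -7.48 ± 0.60, and miR-708, which lies in an intron of ODZ4 (TENM4), fell by 7.54 ± 0.75. miR-101, known for targeting EZH2, was at 28650, 16320 and 6390 CPM against 386, 650, 319 and 352 CPM (-5.33 ± 0.56). In the other direction, miR-212 was at 1.83, 0.969 and 5.78 CPM in Infant and 165, 70.5, 210 and 70.4 CPM in Sperm (5.47 ± 0.84; 6.52 without Infant 30, 1.17 and not called when hairpins enter the scaling). miR-186 rose from 3079, 2344 and 1680 CPM to 15480, 8478, 6292 and 15250 CPM (2.26 ± 0.47; -1.86 with hairpins in the scaling), and miR-148b-5p from 49.1, 48.1 and 33.9 CPM to 277, 261, 151 and 192 CPM (2.33 ± 0.51; -1.73 with hairpins in the scaling). miR-155, an immune cell miRNA, was at 2066, 2134 and 2148 CPM against 4156, 2658, 3333 and 4268 CPM; the groups do not overlap, and it was not called (0.77 ± 0.38, edgeR adjusted p = 0.0723; 0.0364 by DESeq2, 0.00649 when thinned, and -3.40 with hairpins in the scaling). miR-101 and miR-186 lie outside the rule for named miRNAs and were picked after their values were seen.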
